A study of Mus musculus with 22 samples.

Results

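The variable segments of the T cell receptor genes were examined in RNA sequencing of mouse P14 CD8+ T cells. Members were the table rows whose symbol begins with Trav, Trbv, Trgv or Trdv and a number and that held at least 1 read in 1 library or more. By that rule 112 of the 129 variable segment rows were members, out of 46297 rows in the table, of which 40936 held a read. They comprised 75 alpha (Trav), 30 beta (Trbv), 1 gamma (Trgv) and 6 delta (Trdv) segments, and all 112 have 1 position in GENCODE M21 on the mm10 genome. The 22 libraries came from wild-type (WT) or VHL-deficient P14 cells of the C57BL/6 strain, labelled as taken at an age of 6 to 12 weeks, with 5 mice per biological replicate. They fall into 5 settings with both genotypes in each. Tumor cells of day 11 have 3 libraries per genotype, and the 4 settings of day 7, each with 2 libraries per genotype, are unsplit tumor cells, spleen cells, and tumor cells split by sorting into Trm (tissue-resident memory) and nonTrm. The sources used here do not give the tumor, the event that day 0 marks, the way Vhl was deleted or the sort markers.

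A T cell receptor gene is assembled in the thymus by joining 1 variable segment to a joining segment, with a diversity segment between them in the beta and delta loci. The constant region is added by splicing of the RNA. A mature CD8+ T cell carries an alpha and a beta chain, and the delta segments lie inside the alpha locus. P14 T cells carry transgenes for a rearranged receptor that recognises a peptide of lymphocytic choriomeningitis virus, made of V alpha 2 (the Trav14 family) and V beta 8.1 (Trbv13-3). VHL is the substrate-binding part of the ubiquitin ligase that marks hypoxia-inducible factor alpha subunits for degradation.

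The beta results turn on Trbv13-3, whose variable exon lies at chr6:41130292-41130585 on the plus strand. It is shown with its nearest relatives because reads could be split among them. Capitals in Trbv13-2 (chr6:41121539-41121832) and Trbv13-1 (chr6:41116175-41116468) mark bases that differ from Trbv13-3.
Trbv13-3: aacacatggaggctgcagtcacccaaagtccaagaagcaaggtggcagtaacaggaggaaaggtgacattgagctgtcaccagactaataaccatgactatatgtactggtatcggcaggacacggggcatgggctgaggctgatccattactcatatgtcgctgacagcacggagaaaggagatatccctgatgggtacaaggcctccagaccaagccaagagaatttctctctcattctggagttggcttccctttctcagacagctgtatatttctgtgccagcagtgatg
Trbv13-2: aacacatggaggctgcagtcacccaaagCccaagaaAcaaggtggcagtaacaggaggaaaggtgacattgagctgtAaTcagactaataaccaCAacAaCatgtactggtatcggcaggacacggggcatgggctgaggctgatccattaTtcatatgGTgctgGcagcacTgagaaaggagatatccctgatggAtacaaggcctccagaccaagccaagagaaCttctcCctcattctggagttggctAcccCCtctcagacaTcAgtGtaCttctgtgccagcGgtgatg
Trbv13-1: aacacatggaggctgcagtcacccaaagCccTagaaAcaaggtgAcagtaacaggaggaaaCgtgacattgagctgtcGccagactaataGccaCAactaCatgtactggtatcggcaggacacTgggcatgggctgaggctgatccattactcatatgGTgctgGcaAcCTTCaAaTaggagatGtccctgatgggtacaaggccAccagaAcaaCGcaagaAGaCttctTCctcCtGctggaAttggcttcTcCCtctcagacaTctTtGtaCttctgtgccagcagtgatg
Trbv13-2 was identical to Trbv13-3 at 270 of 294 bases (91.8%), with a longest shared run of 50 bases, and Trbv13-1 at 253 of 294 (86.1%), with a longest run of 34. No other Trbv coding exon shared a run of more than 14 bases with Trbv13-3. The sequences are those of GENCODE M21 transcripts on mm10.

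The alpha results turn on Trav14-1, of which the last 280 bases of the variable exon are shown (chr14:53554279-53554558, plus strand).
Trav14-1: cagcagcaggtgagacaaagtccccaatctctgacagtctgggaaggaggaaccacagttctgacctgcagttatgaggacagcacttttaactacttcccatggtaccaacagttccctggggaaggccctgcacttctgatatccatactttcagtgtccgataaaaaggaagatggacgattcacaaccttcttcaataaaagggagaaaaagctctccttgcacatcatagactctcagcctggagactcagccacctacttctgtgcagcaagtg
The other family members were 92.6% to 95.8% identical to Trav14-1, with longest shared runs of 47 to 63 bases. Reads may therefore be divided within the family, and its 5 members with a read were summed for the share.

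The ends of 5 other Trbv coding exons are shown because these segments, unlike Trbv13-3, were higher in VHL-deficient cells in the results that follow. Capitals mark TGTGCCAG, which begins with a codon for the conserved cysteine of the variable domain. They lie on the plus strand at chr6:41114008-41114067 (Trbv12-1), chr6:41188918-41188977 (Trbv20), chr6:40891826-40891885 (Trbv1), chr6:41048769-41048828 (Trbv3) and chr6:41119305-41119364 (Trbv12-2).
Trbv12-1: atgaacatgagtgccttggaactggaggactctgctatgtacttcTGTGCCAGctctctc
Trbv20: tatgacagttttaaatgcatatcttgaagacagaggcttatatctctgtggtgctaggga
Trbv1: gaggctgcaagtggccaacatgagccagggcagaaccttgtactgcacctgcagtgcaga
Trbv3: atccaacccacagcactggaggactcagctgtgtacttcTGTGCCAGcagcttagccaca
Trbv12-2: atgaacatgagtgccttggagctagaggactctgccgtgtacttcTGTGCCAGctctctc
These letters occur in the last 60 bases of 13 of the 22 Trbv coding exons of members (59.1%), in Trbv13-3 among them, and their reverse complement in 0. The exons shown thus include segments with and without the match.

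Libraries held 3375558 to 10211060 reads assigned to genes, and the deposited values were read counts divided by a size factor per library, plus 1. Levels are given here as scaled counts, the deposited value minus 1, in which 1 read was worth 0.684 to 2.73. Vhl (chr6:113623959-113631633, on the same chromosome as the beta locus) held 60 to 280 reads in WT libraries and 0 to 32 in VHL-deficient ones. Cd8a ranged from 1713 to 14333 scaled counts, and Cd8b1 from 2982 to 16376. The VHL-deficient nonTrm library of replicate 2 stood apart: ribosomal RNA made up 45.7% of its reads, the most of any library, against 26.9% in the lowest, and it had the highest scaled counts of Trbv13-3 and Trav14-1. In these bulk libraries, fewer cells of a type and less RNA per cell cannot be told apart.

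Members held 42717 reads in all, 31798 in Trav, 7402 in Trbv, 3231 in Trdv and 286 in Trgv rows. Only 13 members had a read in every library, 55 held under 10 reads in all libraries together, and 20 were read in 1 library only. Trav14-1 alone held 30089 reads. Per kb of exon, its mean scaled count was 3765, against 4910 for the alpha constant segment Trac. Trbv13-3 held 1898 reads and a mean of 280 scaled counts per kb, against 3704 for Trbc1 and 2953 for Trbc2, the beta constant segments. The next Trbv rows per kb were Trbv15 at 83.0, Trbv16 at 64.1 and Trbv12-2 at 62.4. What sets the low level of Trbv13-3 beside its constant segments was not tested.

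Trbv13-3 had the most reads per kb of any Trbv member in all 22 libraries. Its lead over the next segment was 2.77 to 7.13 times in WT libraries, with a median of 4.68, and 1.21 to 3.19 times in VHL-deficient ones, with a median of 1.75. The narrowest lead was over Trbv17 in VHL-deficient Trm replicate 1. Trav14-1 likewise led the Trav members in all 22 libraries, by 41.6 to 129 times in WT and 39.3 to 177 times in VHL-deficient libraries.

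The first comparison asked whether the share of the P14 beta segment among all Trbv reads differed between genotypes. In day 11 tumor, Trbv13-3 took 56.7%, 42.8% and 48.0% of Trbv reads in WT libraries and 19.7%, 14.5% and 24.2% in VHL-deficient libraries. In unsplit day 7 tumor it took 45.5% and 52.2% in WT and 17.8% and 19.2% in VHL-deficient libraries. The lowest WT share in either tumor setting was above the highest VHL-deficient share. In spleen the shares were 38.9% and 37.9% in WT and 24.8% and 22.6% in VHL-deficient libraries. In Trm they were 47.3% and 50.2% against 13.98% and 14.2%, and in nonTrm 37.0% and 54.0% against 17.3% and 20.9%. The genotypes did not overlap in any of the 5 settings, nor over all libraries, where WT ran from 37.0% to 56.7% (median 47.3%) and VHL-deficient from 13.98% to 24.8% (median 19.2%).

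Averaged over settings, the Trbv13-3 share was 27.2 percentage points lower in VHL-deficient cells. The two-sided exact permutation p, with labels exchanged within settings, was 8e-05, the smallest that 25920 arrangements allow, and 0.000617 after Benjamini-Hochberg adjustment over 8 share tests. The difference was widest in Trm (48.8% ± 2.08 in WT against 14.1% ± 0.142 in VHL-deficient, SD, n = 2 each) and narrowest in spleen (38.4% ± 0.724 against 23.7% ± 1.53, SD, n = 2 each). Each share rested on 67 to 727 Trbv reads. In unsplit day 7 tumor WT replicate 2, the library with the fewest, the 95% Wilson interval was 40.5% to 63.7%, and in VHL-deficient nonTrm replicate 1, the one with the most, 14.8% to 20.3%. These intervals cover counting error only. Labels describe the libraries as biological replicates. Whether libraries of different settings, such as Trm and nonTrm, came from the same mice is not given in the labels used here. Both this test and limma treat all libraries as independent. If they were not, the p-values could be too small, which was not tested.

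**Figure D1:**
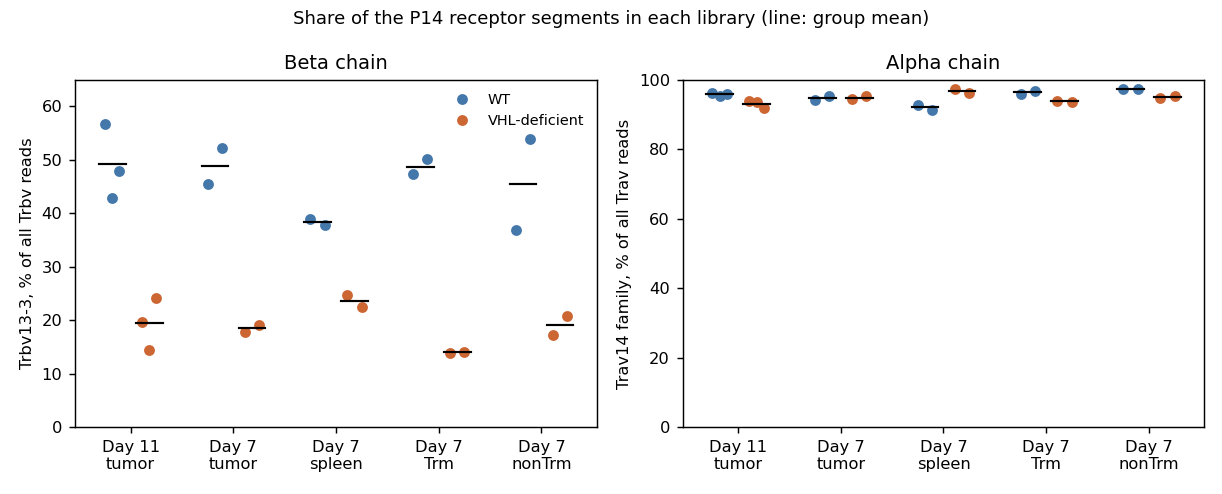
Share of reads in each library for Trbv13-3 among all Trbv reads (left, %) and for the Trav14 family among all Trav reads (right, %), by setting and genotype; each point is a library and each line a group mean. On the left the WT points lie between 37.0% and 56.7%, above the VHL-deficient points at 13.98% to 24.8%, while on the right all points lie between 91.4% and 97.5%.

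The lower share came with higher levels of the other Trbv segments, while the level of Trbv13-3 overlapped between genotypes. The share of mitochondrial reads also separated the genotypes, at 6.07% to 12.1% in WT and 2.89% to 5.57% in VHL-deficient libraries, and its part in the segment results was not tested. Trbv13-3 itself had 108, 80.1 and 83.0 scaled counts in WT day 11 tumor and 80.1, 61.5 and 76.2 in VHL-deficient day 11 tumor. Over all settings it ranged from 50.2 to 162 (median 83.0) in WT and from 61.5 to 235 (median 80.1) in VHL-deficient libraries. The genotypes overlapped, and the log2 fold change averaged over settings was 0.06 ± 0.18 (SE; limma adjusted p = 0.84). Without VHL-deficient nonTrm replicate 2 it was -0.08. Per 1000 reads of Trbc1 and Trbc2, Trbv13-3 had 14.2 to 28.1 reads in WT and 14.7 to 30.5 in VHL-deficient libraries.

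The 29 other Trbv members together had 82.1, 107 and 89.9 scaled counts in WT day 11 tumor and 326, 363 and 239 in VHL-deficient day 11 tumor. In spleen they had 157 and 124 in WT against 360 and 337, and in Trm 119 and 73.1 against 631 and 451. Over all libraries the sum was 60.0 to 164 (median 107) in WT and 239 to 889 (median 360) in VHL-deficient cells, without overlap. The ratio of group means, VHL-deficient over WT, was 3.33 in day 11 tumor, 4.60 in unsplit day 7 tumor, 2.48 in spleen, 5.64 in Trm and 4.30 in nonTrm. The nonTrm ratio was 2.72 without VHL-deficient replicate 2. Per 1000 Trbc reads the other Trbv members had 14.1 to 44.1 reads in WT and 63.2 to 104 in VHL-deficient libraries.

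**Figure D2:**
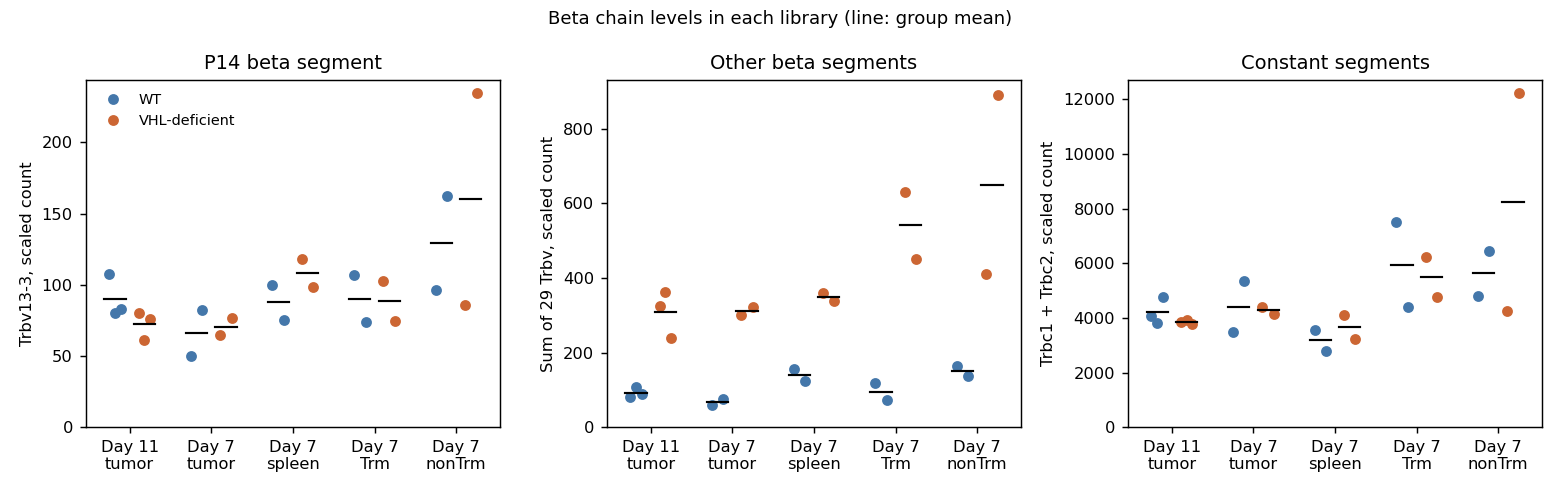
Scaled counts (reads divided by the library's size factor) of Trbv13-3 (left), the summed other 29 Trbv members (middle) and Trbc1 plus Trbc2 (right), by setting and genotype; each point is a library and each line a group mean. The genotypes separate in the middle panel only, at 60.0 to 164 against 239 to 889; the VHL-deficient nonTrm library of replicate 2 is the highest point in each panel.

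Of the 29 other Trbv members, 26 had a higher mean scaled count in VHL-deficient and 3 in WT libraries. They held 4380 reads in VHL-deficient libraries, spread over 28 rows, and 1124 in WT libraries, over 27 rows. The most-read of them, Trbv15, took 13.1% of their reads in WT and 10.5% in VHL-deficient libraries. Trbv16 took 13.4% of these reads in WT and 9.11% in VHL-deficient libraries, and Trbv12-1 took 3.65% and 7.15%. In 6 of the 29, Trbv5, Trbv12-1, Trbv12-2, Trbv15, Trbv20 and Trbv26, every VHL-deficient library lay above every WT library in each of the 5 settings. Across the 14327 genes tested, 3.31% met that condition. In 0 of the 29 did every VHL-deficient library lie below every WT library in any setting. A segment with 0 reads in a WT library could not meet this in that setting, and 16 of the 19 tested others had such a library. The shares of all genes that meet it, or that have a higher mean in VHL-deficient libraries, are not given here.

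Trbv12-1 had the largest fold change of the tested Trbv segments. Its WT values were 1.82, 0 and 5.19 scaled counts in day 11 tumor, 0 and 0 in unsplit day 7 tumor, 16.7 and 4.19 in spleen, 1.35 and 9.50 in Trm, and 3.01 and 0 in nonTrm. The matching VHL-deficient values were 25.5, 46.1 and 13.7 in day 11 tumor, 8.12 and 22.1 in unsplit day 7 tumor, 42.5 and 36.1 in spleen, 34.5 and 30.3 in Trm, and 13.7 and 65.5 in nonTrm. The highest WT value was that of spleen replicate 1, below both VHL-deficient spleen libraries. The log2 fold change averaged over settings was 3.20 ± 0.43 (SE; adjusted p = 1.1e-05).

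Limma tested the 14327 genes that reached 10 scaled counts in 2 libraries or more, and called 27.2% of them (adjusted p under 0.05) for genotype averaged over settings. Of the members, 30 passed that filter, 20 Trbv, 5 Trav, 4 Trdv and 1 Trgv, and 24 of them rose in VHL-deficient cells and 0 fell. These 24 include the 19 tested other Trbv segments, with a median log2 fold change of 1.81 beside 0.04 over all tested genes. A segment could pass the filter through its VHL-deficient libraries alone, so this count describes the segments that passed it. With no filter beyond 1 read, 29 other Trbv members were tested, of which 16 rose, 0 fell and 26 had a positive fold change. The shares of all genes called, or with a positive fold change, in that unfiltered fit are not given here. The median log2 fold change of these 29 was then 1.52. The 10 that did not pass the main filter held 1 to 40 reads each, and 8 of them are annotated as pseudogenes.

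After Trbv12-1, the largest log2 fold changes were 3.01 for Trbv20, 2.97 for Trbv1, 2.81 for Trbv3 and 2.51 for Trbv5. Trbv20 had 0 to 10.5 scaled counts in WT libraries (median 2.35) and 10.8 to 81.8 in VHL-deficient ones (median 24.6), without overlap. Trbv1 had 0 to 19.5 (median 2.35) against 6.15 to 54.1 (median 24.6), and Trbv3 had 0 to 19.6 (median 3.27) against 9.29 to 64.9 (median 28.2). For Trbv1 and Trbv3 the genotypes overlapped over all libraries, with the highest WT value in spleen replicate 1 for Trbv1 and in nonTrm replicate 1 for Trbv3. Of the tested others, 16 had 0 reads in 1 WT library or more, so their fold changes depend on the added 1 and understate large ratios.

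The 3 most-read of the other segments had smaller fold changes than these 5. Trbv15 had 4.38 to 41.9 scaled counts (median 13.9) in WT and 17.9 to 156 (median 34.6) in VHL-deficient libraries, a log2 fold change of 1.52 ± 0.32 (SE; adjusted p = 0.0013). Trbv16 changed by 1.53 and Trbv12-2 by 1.40. The close relatives of Trbv13-3 also rose, Trbv13-1 by 2.42 ± 0.40 and Trbv13-2 by 1.46 ± 0.36 (SE; adjusted p = 0.00012 and 0.0049). The smallest fold changes among the called Trbv segments were 1.30 for Trbv17, 1.40 for Trbv12-2 and 1.46 for Trbv13-2. The calls of Trbv2, Trbv17 and Trbv30 ended without any 1 of 13, 12 and 5 libraries of the 22, respectively. Without VHL-deficient nonTrm replicate 2, 17 of the 19 other Trbv segments rose.

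**Figure D3:**
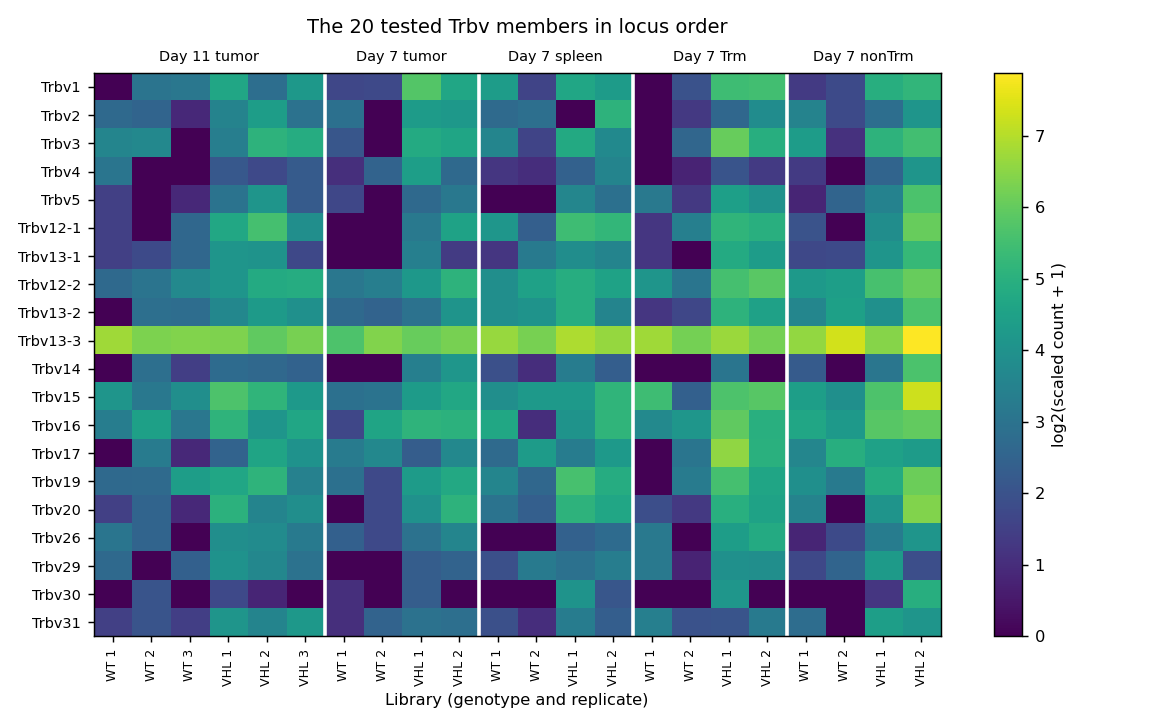
Level of each of the 20 tested Trbv members, as log2(scaled count + 1), in each of the 22 libraries, with segments in locus order from Trbv1 to Trbv31 and libraries grouped by setting and genotype. Trbv13-3 is the brightest row in nearly every library, while most other rows are darker in WT than in VHL-deficient columns.

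The segments that rose lay along the whole locus. Relative to the start of Trbc1, Trbv1 starts at -647 kb and Trbv30 at -257 kb. Trbv31 starts at 19.5 kb, beyond the constant segments and on the opposite strand, and it too rose, by 1.52 ± 0.37 (SE; adjusted p = 0.0047). The neighbouring genes named here did not pass the test: the trypsin gene Prss2 changed by -0.06, the diversity segment Trbd1 by -0.20, and 0 of 14 tested Trbj joining segments were called (0 rose and 0 fell), with fold changes from -0.25 to 0.63. The constant segments Trbc1 and Trbc2 changed by 0.05 and 0.09, neither of which passed the test. Beyond the locus, Ephb6, an ephrin receptor without kinase activity, changed by 0.87 (adjusted p = 0.12). Trbv4 and Trbv5 overlap the gene 5830405F06Rik, so their reads are uncertain.

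**Figure D4:**
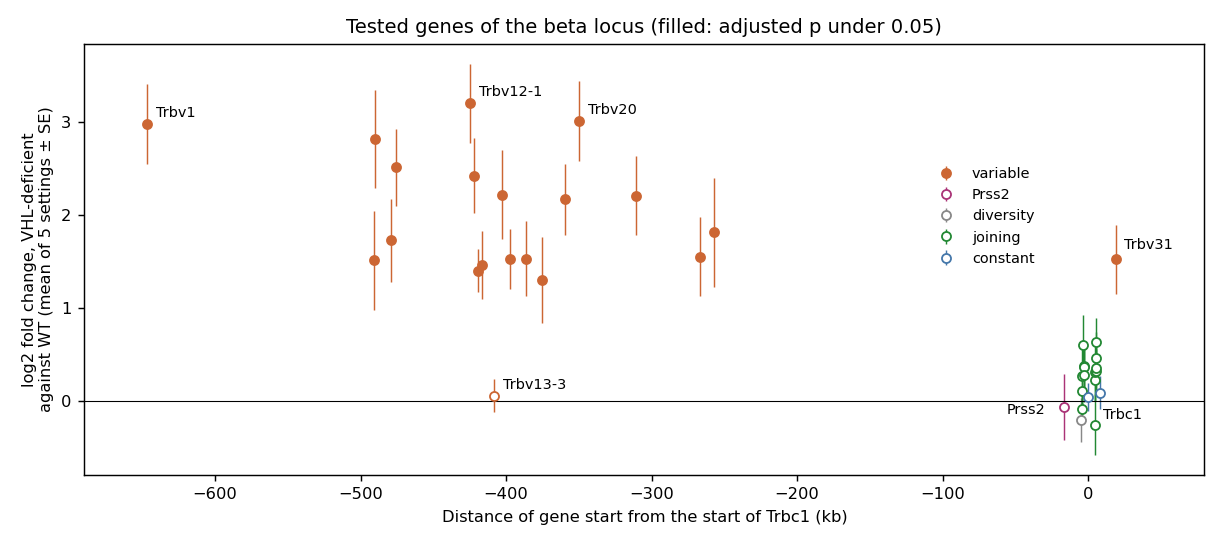
Log2 fold change of VHL-deficient against WT, averaged over the 5 settings with its SE, for the tested genes of the beta locus, against the distance of each gene's start from the start of Trbc1 (kb). Filled points passed an adjusted p under 0.05: the 19 variable segments other than Trbv13-3 (0.06) are filled, and the joining, diversity and constant segments are open.

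By setting, fewer members passed, beside the background of each fit. In day 11 tumor, where 6.87% of tested genes were called, 3 members rose, Trbv12-1 by 3.35 ± 0.80, Trbv12-2 by 1.45 ± 0.43 and Trdv4 by 1.01 ± 0.29 (SE). In unsplit day 7 tumor, where 1.91% were called, 1 member rose, Trbv12-1. Both WT libraries had 0 reads of it, and its VHL-deficient mean of 15.1 scaled counts was at least 2.92-fold higher than a floor of 3 reads per library. In spleen, with 3.18% called, 1 member rose, Trdv4 by 1.39 ± 0.36. None of these settings had a member that fell.

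In Trm, where 10.1% of tested genes were called, 10 members rose and 0 fell: Trbv1, Trbv3, Trbv12-2, Trbv13-1, Trbv13-2, Trbv17, Trbv19, Trbv20, Trav15-2-dv6-2 and Trdv4. Trbv1 had 0 and 2.92 scaled counts in WT Trm and 41.9 and 44.3 in VHL-deficient Trm, a log2 fold change of 4.48 ± 0.99 (SE; adjusted p = 0.0071). Trbv17 had 0 and 7.31 against 93.2 and 31.1. These groups did not overlap. Trbv13-1 had 1 read in WT Trm against 51 in VHL-deficient Trm, a ratio of 47.9 with an exact 95% counting interval of 8.23 to 1930. In nonTrm, where 2.32% were called, 2 members rose, Trbv12-1 by 3.96 ± 0.99 and Trav15-2-dv6-2, with 2 WT reads against 20 (ratio 11.9, interval 2.88 to 105).

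The counts per setting rest on 2 or 3 libraries per group and moved when single libraries were left out. The day 11 count was 0 without VHL-deficient day 11 replicate 2, 1 without any of the other 5 day 11 libraries or either VHL-deficient unsplit tumor library, and 7 without either VHL-deficient nonTrm library. The unsplit tumor count was 0 without any library of that setting or any VHL-deficient library of day 11 tumor, spleen or Trm, and 2 without any nonTrm library. The spleen count was 0 without WT replicate 2 or either VHL-deficient spleen library, and 2 without either VHL-deficient nonTrm library. The Trm count was 5 without WT or VHL-deficient Trm replicate 1, 6 without Trm WT replicate 2, and 0 when VHL-deficient Trm replicate 2 was left out. The nonTrm count was 10 and 0 when VHL-deficient nonTrm replicates 1 and 2, respectively, were left out, and 1 without WT nonTrm replicate 2.

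In each setting, the median log2 fold change of the 19 tested other Trbv segments was 1.79 in day 11 tumor, 2.08 in unsplit day 7 tumor, 1.50 in spleen, 2.58 in Trm and 2.55 in nonTrm, beside medians of 0.02 to 0.09 over all tested genes. A segment could pass the filter through its VHL-deficient libraries alone, so these medians describe only the segments that passed it. Averaged over settings, the median was 1.81 for these 19 and 1.52 for all 29 with no filter beyond 1 read. Whether the genotype difference varied with subset, tissue or day was tested for each member, and 0 passed. At an unadjusted limma p under 0.05 there were 3 for subset, 0 for tissue and 0 for day, and voom on recovered reads also called 0. The share of all tested genes called is not given for these differences. Their SEs were wide, for subset 1.39 on the log2 scale for Trbv12-1 and 0.50 for Trdv4. The 0 calls therefore do not show that the genotype difference was alike in all settings.

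The alpha chain was almost wholly the P14 family in both genotypes. The Trav14 family took 96.1%, 95.3% and 95.9% of Trav reads in WT day 11 tumor and 93.9%, 93.5% and 91.9% in VHL-deficient day 11 tumor. In spleen it took 92.6% and 91.4% in WT and 97.4% and 96.2% in VHL-deficient libraries, the opposite order. In Trm the shares were 95.9% and 96.8% against 94.0% and 93.6%, and in nonTrm 97.2% and 97.5% against 94.8% and 95.3%. WT was higher without overlap in 3 settings, VHL-deficient was higher without overlap in spleen, and the groups overlapped in unsplit day 7 tumor. Averaged over settings the difference was -0.557 percentage points (exact permutation p = 0.458; adjusted p = 0.889).

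The level of Trav14-1 was somewhat higher in VHL-deficient cells. It had 1266, 1044 and 817 scaled counts in WT day 11 tumor and 1320, 1340 and 1018 in VHL-deficient day 11 tumor, which overlapped. In spleen it had 1476 and 1217 against 2633 and 2294, and in Trm 1162 and 1043 against 1492 and 1727, without overlap. The log2 fold change averaged over settings was 0.45 ± 0.16 (SE; adjusted p = 0.036), a call that ended without any 1 of 12 libraries; without VHL-deficient nonTrm replicate 2 it was 0.31 (adjusted p = 0.056). Trac changed by 0.16 ± 0.13 (SE; adjusted p = 0.39). The other family members were sparse, with 68 reads for Trav14-3, 31 for Trav14-2, 9 for Trav14d-3-dv8 and 7 for Trav14n-3.

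The 70 other Trav members held 586 reads in WT and 1008 in VHL-deficient libraries, and 48 had a higher mean in VHL-deficient libraries. The share of all genes with a higher mean is not given here. Their summed scaled counts, VHL-deficient over WT, were 1.97 times in day 11 tumor, 1.18 in unsplit day 7 tumor, 0.693 in spleen, 2.54 in Trm and 2.61 in nonTrm, or 1.55 in nonTrm without VHL-deficient replicate 2. The most-read were Trav21-dv12 with 301 reads, Trav17 with 239, Trav15-2-dv6-2 with 143, the pseudogene Trav8-2 with 96 and the pseudogene Trav22 with 90. The next were Trav15-1-dv6-1 with 88, Trav16 with 71, Trav13-1 with 68, Trav19 with 43 and Trav13-4-dv7 with 38. Each took a mean of 0.98% or less of Trav reads per library.

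Of the 4 other Trav members tested, 2 rose, Trav15-2-dv6-2 by 1.40 ± 0.30 and Trav17 by 1.22 ± 0.34 (SE; adjusted p = 0.0017 and 0.011). Trav17 had 0.752 to 14.7 scaled counts in WT (median 5.57) and 2.23 to 43.6 in VHL-deficient libraries (median 14.7), with overlap. Trav21-dv12 changed by 0.10 and Trav22 by 0.30, neither past the test. The segments of invariant T cells were at or near 0: Trav11, used by invariant natural killer T cells, had 0 reads, its copy Trav11d had 1, and Trav1, used by mucosal-associated invariant T cells, had 1.

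Among the delta segments, Trdv4 separated the genotypes in every setting. It had 41.9, 41.2 and 39.8 scaled counts in WT day 11 tumor and 61.5, 125 and 75.5 in VHL-deficient day 11 tumor. In spleen it had 80.7 and 59.7 in WT against 194 and 173, in Trm 47.3 and 30.0 against 105 and 132, and in nonTrm 70.7 and 60.8 against 130 and 120. Each VHL-deficient library was above each WT library of its setting, a condition 7 of the 30 tested members met beside the 3.31% of all tested genes given above. The log2 fold change averaged over settings was 1.15 ± 0.15 (SE; adjusted p = 1.1e-05).

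Trdv5 also rose, by 1.01 ± 0.29 (SE; adjusted p = 0.012), from a median of 10.3 scaled counts in WT to 19.1 in VHL-deficient libraries. Trdv1 changed by 0.36 and Trdv2-2 by 0.21, neither past the test, and the gamma segment Trgv2 by 0.86 (adjusted p = 0.093). The delta constant segment Trdc rose by 0.53 ± 0.11 (SE; adjusted p = 0.0012), from a median of 372 to 642 scaled counts. Trdv4 and Trdv5 lie antisense to Gm30275 and Trdc, and Trdv2-2 to Gm43647. The sources used here do not say whether counting used strand, so these pairs cannot be told apart.

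Unsplit tumor against spleen cells of day 7, averaged over genotypes, was the comparison with the most genes called, 31.1% of those tested. Of the 30 tested members 0 rose and 6 fell in tumor: Trav22, Trdv2-2, Trbv12-1, Trbv13-1, Trdv4 and Trav14-1. Trdv2-2 had 14.2 and 18.8 scaled counts in WT tumor, 14.9 and 13.4 in VHL-deficient tumor, 114 and 73.3 in WT spleen and 93.9 and 76.3 in VHL-deficient spleen. All 4 spleen libraries were above all 4 tumor libraries, and the log2 fold change was -2.46 ± 0.36 (SE; adjusted p = 2.7e-05). Trav22, its neighbour under the same antisense gene, had 2 reads in tumor against 65 in spleen, a ratio of 32.6 in favour of spleen with an exact 95% counting interval of 8.67 to 275.

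Trdv4 fell in tumor by 1.11 on the log2 scale, Trbv12-1 by 2.37, Trbv13-1 by 1.78 and Trav14-1 by 0.74. The Trav14-1 call ended without any 1 of the unsplit tumor and spleen libraries other than WT tumor replicate 2 (limma adjusted p 0.0503 to 0.105). That of Trbv12-1 ended without VHL-deficient tumor replicate 1 or WT spleen replicate 1 (limma adjusted p 0.0694 and 0.073), and by voom. That of Trbv13-1 ended without any 1 of 9 libraries: both WT tumor and both VHL-deficient spleen and Trm libraries, and replicate 2 of VHL-deficient tumor, WT spleen and WT day 11 tumor (limma adjusted p 0.0503 to 0.194). Trdc fell as well, by 0.78, and 8 of the 19 tested Traj joining segments fell and 0 rose, while 0 of 14 Trbj segments were called. The Trbv13-3 share did not pass the test, with a difference of 2.65 percentage points (exact permutation p = 0.5), nor did the Trav14 family share, with 0.402 (exact permutation p = 0.833). The design allows no p below 0.0556 here. Of the 2 tested B cell markers both fell in tumor, Cd79b by 2.08 and Ighm by 0.88, and the list summed to 199 to 1021 scaled counts in tumor and 576 to 1225 in spleen. Of the 5 gamma delta markers 2 fell, Trdc and Cd163l1, the latter by 2.52, and the list summed to 350.4 to 599.5 in tumor and 764 to 928 in spleen. Of the 4 macrophage and monocyte markers 2 rose, Cd68 and Cd14, and 1 fell, Itgam by 1.98, with sums of 25.7 to 79.96 in tumor and 26.4 to 42.5 in spleen. Of the 3 melanoma markers 1 fell, Pmel by 1.61, with sums of 25.2 to 37.1 against 66.8 to 98.3. Tyrp1 and Dct went the other way, by 0.94 and 0.68, neither past the test. Pmel gave most of the sum, with 827 reads in all libraries against 92 for Tyrp1 and 64 for Dct. Of the 6 CD4 T cell markers 2 rose, Ctla4 by 3.15 and Il2ra by 2.62 (sums 4329.5 to 7091 against 329 to 1588). Of the 3 natural killer T cell markers 2 rose, Slamf1 by 1.59 and Cd160 by 1.49 (sums 893 to 2352 against 283 to 943). Klrb1c of that list went the other way, by -1.37, and did not pass the test. Cd160 and Slamf1 gave most of the sum, with 16907 and 7271 reads in all libraries against 613 for Klrb1c. The part of these in the member results was not tested. Tissue is compared within 1 plate column, where the endings of the sample titles were read as plate wells.

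**Figure D5:**
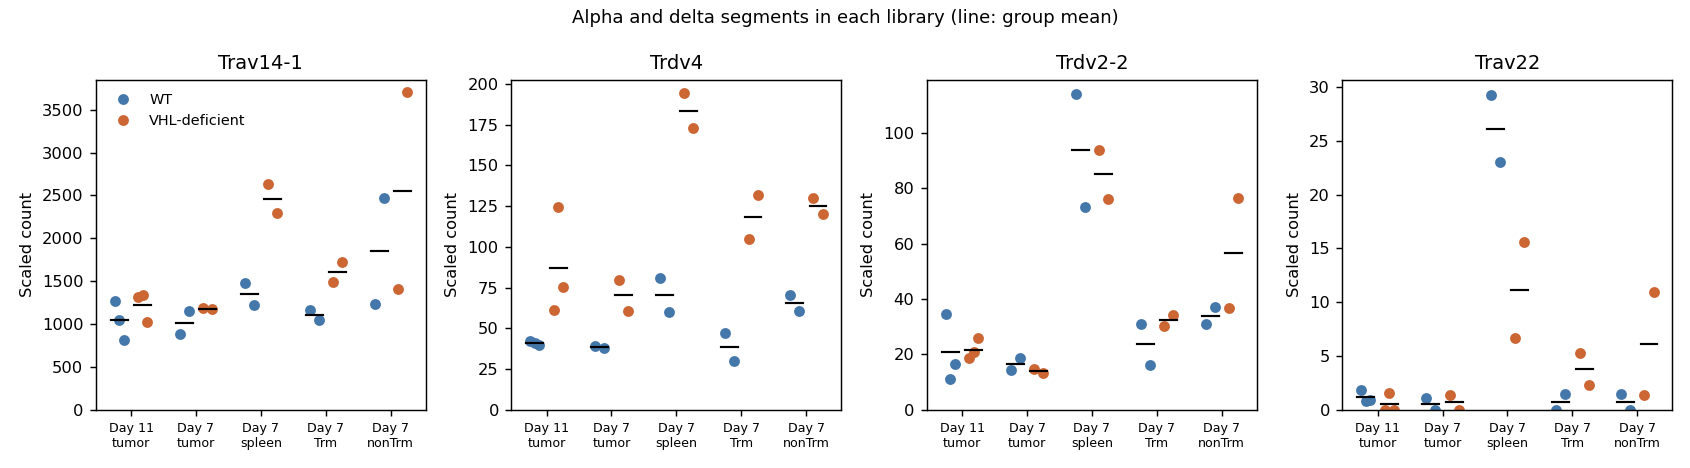
Scaled counts of Trav14-1, Trdv4, Trdv2-2 and Trav22 in each library by setting and genotype; points are libraries and lines group means. Trdv4 is higher in VHL-deficient than in WT libraries in every setting, and Trdv2-2 and Trav22 are highest in spleen, where Trdv2-2 lies at 73.3 to 114 against 13.4 to 18.8 in unsplit tumor.

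Trm against nonTrm and day 11 against day 7 showed 0 member calls. For the subset, 0.293% of tested genes were called and 4 members reached an unadjusted p under 0.05; voom also called 0, and without VHL-deficient nonTrm replicate 1 limma called 2. The Trbv13-3 share differed by -0.863 percentage points (exact permutation p = 0.889), a mean of opposite differences. In WT cells it differed by 3.30 points, with overlap of the subsets, and in VHL-deficient cells by -5.02, without overlap. The difference of these differences was -8.32 points (exact permutation p = 0.389, adjusted p = 0.583). The Trav14 family share was lower in Trm in both genotypes, by 0.993 points in WT and 1.26 in VHL-deficient cells, without overlap in either. Its mean difference of -1.12 gave an exact permutation p of 0.0556, the smallest 36 arrangements allow, and 0.222 after adjustment. Trav14-1 in Trm against nonTrm changed by -0.59 and Trbv13-3 by -0.59 on the log2 scale, neither past the test. For the day, 0 (0%) of the tested genes were called, by limma, with 2 members at an unadjusted p under 0.05 and 0 by voom. The Trbv13-3 share differed by 0.623 points between days (exact permutation p = 0.86), and day cannot be told apart from plate column.

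Other receptor genes and markers of other cells were read beside the members. Of the 6 CD3 and coreceptor genes, 2 rose in VHL-deficient cells, Cd3g by 1.01 and Cd3e by 0.39, and 0 fell. Of 3 recombination genes, needed to join segments, none passed the filter, with 6 reads for Rag1, 10 for Rag2 and 15 for Dntt in all libraries. Of the 5 tested gamma delta T cell markers 1 rose, Trdc; the list summed to 338 to 837 scaled counts in WT and 504 to 928 in VHL-deficient libraries, mostly Trdc. The other tested ones had positive fold changes that did not pass: Cd163l1 1.06, Tcrg-C1 0.81, Tcrg-C4 0.78 and Tcrg-C2 0.53. In all libraries, Tcrg-C2 held 913 reads, Tcrg-C4 457, Cd163l1 239 and Tcrg-C1 130. The untested Sox13, Blk and Zbtb16 held 18, 5 and 3 reads.

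Of the 6 CD4 T cell markers, 3 rose with loss of VHL, Cd4 by 1.95, Ctla4 by 1.06 and Il2ra by 0.52, and 1 fell, Foxp3 by 1.94. The list summed to 329 to 8276 scaled counts in WT and 1493 to 13563 in VHL-deficient libraries, of which Ctla4, also made by activated CD8+ T cells, gave most. Cd4 itself had 0 to 23.0 scaled counts (median 3.14) in WT and 5.46 to 25.1 (median 13.9) in VHL-deficient libraries, with overlap. Zbtb7b changed by 0.48 and Cd40lg by -0.43, neither past the test. Of the 3 tested natural killer T cell markers 2 fell, Slamf1 by 0.86 and Cd160 by 1.04, with Trav11 at 0 and a summed range of 662 to 2352 in WT and 283 to 1090 in VHL-deficient libraries. Of the 2 tested B cell markers, Ighm fell by 2.13 and Cd79b rose by 0.89, with Ms4a1 at 10 reads, Pax5 at 9 and a summed range of 312 to 1225 against 79.2 to 619. The 4 tested macrophage and 3 tested melanoma markers included 0 calls, with summed ranges of 26.4 to 144 against 25.7 to 103 and of 27.4 to 72.7 against 25.2 to 98.3. The part of any of these in the member results was not tested.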

How the data were processed

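Cells were sorted into lysis buffer and libraries made with a PrepX RNA-seq kit, per the labels' protocols. The submitters' processing notes name STAR, featureCounts and DESeq and the build mm10, without versions. The authors deposited a normalised signal, in which each library's counts were scaled by its size factor and 1 was added. Subtracting 1 gave scaled counts, and dividing these by the smallest step of the library gave reads, which were whole for 100% of values within 0.01 reads (the largest departure was 0.00106).

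Genotype, tissue, subset and day were tested with limma 3.58.1 (R 4.3.3) as contrasts of 10 group means over 22 libraries, on log2 of the scaled count plus 1, with eBayes trend. P-values were adjusted by Benjamini-Hochberg over the 14327 genes that reached 10 scaled counts in 2 libraries or more, and genes under 0.05 were called. All tests are two-sided. Shares per library were compared by exact permutation within settings or genotypes. Both tests were checked on simulated data. Sequences and positions are from GENCODE M21 (mm10). Shares, tables and plots were made with numpy 2.4.6, pandas 2.3.3, scipy 1.17.1 and matplotlib 3.10.9 under Python 3.11.15. "V" in the labels was read as VHL-deficient.

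Members, lists and tests were chosen with earlier results of these data known. Named were the P14 segments, the most-read other segments of each locus, each called member, the invariant, constant, CD3 and coreceptor genes, Vhl, and up to 2 genes per marker list. Foxp3, Il2ra, Zbtb7b, Cd40lg, Klrb1c, Tyrp1, Dct, the other gamma delta markers and the low markers were named in addition after their values were seen. Alternatives covered TMM scaling on top of the size factors, no filter or one of 50, pseudocounts (0.5, 5), no trend, a replicate block, only the groups compared, other share definitions and leaving out each library; voom on the recovered reads and summed levels without single libraries were added after seeing the data.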

Additional observations from a re-analysis of the deposited data

Results flagged for a closer look

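Of 6 tests of whether a share difference varied with genotype, 3 stood out. The Trbv13-3 share was higher in unsplit tumor than in spleen by 10.5 percentage points in WT cells and differed by -5.19 points in VHL-deficient cells, with no overlap between tissues in either genotype. The difference of these differences was -15.7 points (exact permutation p = 0.0556, the smallest possible; adjusted p = 0.111). The Trav14 family share showed the same pattern, 2.80 points in WT and -1.99 in VHL-deficient cells, a difference of -4.79 (exact permutation p = 0.0556, the smallest possible; adjusted p = 0.111). The Trav14 family share of day 11 against unsplit day 7 tumor differed by 0.980 points in WT, where days overlapped, and by -1.72 in VHL-deficient cells, where they did not, a difference of -2.70 (exact permutation p = 0.03, smallest possible 0.02; adjusted p = 0.111). None passed the adjustment over the 6 tests, and with 2 or 3 libraries per group each rests on few values.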

How the results depend on the processing

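Members called for genotype averaged over settings numbered 24, and 5 with a filter of 50 scaled counts, which leaves 3 other Trbv segments tested. In day 11 tumor the 3 calls became 1 with no filter or the replicate block and 6 with only the groups compared. In unsplit day 7 tumor the 1 call became 0 with no filter, a filter of 50, no trend, the replicate block, voom or only the groups compared. In spleen the 1 call became 2 at a pseudocount of 0.5 and 0 with the replicate block or only the groups compared. In Trm the 10 calls became 2 with a filter of 50 and 6 with only the groups compared. In nonTrm the 2 calls became 0 with no filter, a filter of 50 or only the groups compared, 6 at a pseudocount of 5, and 1 with no trend, the replicate block or voom. The 6 calls of tumor against spleen became 3 with a filter of 50. The share of all genes called under each alternative is not given here.

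With constant segment reads as denominator, the genotype difference of Trbv13-3 became -0.0227 percentage points (adjusted p = 0.822), by construction without the other Trbv reads, tumor against spleen became -1.28 for Trbv13-3 and -11.2 for the Trav14 family, and the genotype difference of the Trav14 family became 6.66 (adjusted p = 0.00247). Tumor against spleen also changed sign to -1.12 for the whole Trbv13 family as numerator and to -0.0266 for the Trav14 family on the logit scale, and day 11 against day 7 to -0.259 for Trbv13-3 with the replicate block. The cause was not tested.

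Without 1 library at a time, calls ranged from 21 to 24 for genotype averaged over settings, 0 to 7 in day 11 tumor, 0 to 2 in unsplit day 7 tumor, 0 to 2 in spleen, 0 to 12 in Trm, 0 to 10 in nonTrm, 0 to 2 for Trm against nonTrm, 4 to 6 for tumor against spleen, and 0 to 0 for day and the interactions. Of the 22 libraries, 10, 15, 5, 4 and 3 moved the 5 genotype counts by over 1.5 times. The Trbv13-3 share difference ranged from -28.9 to -25.5 for genotype (adjusted p 0.000617 to 0.00123), -5.11 to 3.38 for subset, 0.974 to 4.32 for tissue and -1.27 to 2.30 for day. That of the Trav14 family ranged from -0.676 to -0.438, -1.36 to -0.894, 0.105 to 0.699 and -0.636 to -0.0722. The Trbv13-3 log2 fold change averaged over settings ranged from -0.0839 to 0.20, with -0.01 without WT unsplit tumor or WT nonTrm replicate 1 and -0.0839 without VHL-deficient nonTrm replicate 2.

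Of 1429 recomputed member folds, 1226 kept their side of the threshold and direction, 200 lost their call and 3, those of Trbv13-3 above, changed sign. Same-numbered WT and VHL-deficient libraries correlated above 0.1 in 8 of 11 pairs, and the lowest correlation was 0.03, in unsplit day 7 tumor. With 2 libraries per genotype, both pairs of a setting have the same correlation by construction, so these counts hold repeated values. The numbers were not taken to pair the samples because not every correlation passed 0.1, which is a weak ground. With the replicate block, 19 of 19 other Trbv segments still rose. In day 11 tumor, 3 of 3 WT and 3 of 3 VHL-deficient libraries correlated best with their own number, a hint of pairing from the data and not from the design. The planned count test on the recovered reads was not run. Most other Trbv members hold few reads per library, which limits the tests within a setting.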
